A study of Mus musculus with 23 samples.

Results

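The D-type cyclins (Ccnd1, Ccnd2 and Ccnd3), their catalytic partner Cdk4 and the Cdk inhibitors Cdkn1a, Cdkn1b, Cdkn1c and Cdkn2c were followed through injury of mouse gastrocnemius muscle. The members were all probe sets annotated to these 8 genes alone, 20 of the 22690 probe sets on the array. A minimum signal of 100 on at least 2 arrays was met by 18 of the 20, and 15 reached it on all 23 arrays. The 2 probe sets below it, both of Ccnd2 (1416123_at and 1416124_at), never exceeded 46.1 and 52.1 and were not tested. Where a gene had several probe sets, the one with the highest mean log2 signal (the brightest) is described first. Levels were not compared between genes, because array signals of different probes have no common scale.

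The series profiled staged degeneration and regeneration in mice lacking emerin or lamin A/C, 2 nuclear envelope proteins linked in people to Emery-Dreifuss muscular dystrophy. Total RNA was hybridised to Affymetrix arrays from control, emerin KO and lamin A/C KO muscle on day 0 and on days 3 and 4 after injection. Controls had 2 arrays on each day, emerin KO had 2, 3 and 3 arrays on days 0, 3 and 4, and lamin A/C KO had 3 arrays on each day. The labels call the control and emerin KO muscles of day 0 non-injected, whereas the lamin A/C KO muscles of day 0 are described as 0 days after injection, so on day 0 that wording and the lamin A/C genotype cannot be told apart. Control day 4 replicate 2 is a control by its title alone, since its description leaves the genotype out. The titles name the controls after the lamin A line, so a difference in strain background from the emerin KO cannot be told apart from the genotype. Injected agent, age, strain and the form of each null allele were not given in the sources used here. Nothing in the labels says that arrays are separate animals, so p-values measure the spread between arrays, and the small number of arrays limits the precision.

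D cyclins are made in response to growth signals and activate Cdk4 and Cdk6, which phosphorylate the retinoblastoma protein, release E2F factors and carry a cell from G1 into S phase. The Cip/Kip inhibitors p21 (Cdkn1a), p27 (Cdkn1b) and p57 (Cdkn1c) bind cyclin-Cdk complexes, and the INK4 inhibitor p18 (Cdkn2c) binds Cdk4 and Cdk6 directly. In regenerating muscle, satellite cells re-enter the cycle and divide as myoblasts, and p21, p57 and cyclin D3 are known to accumulate as myoblasts leave the cycle and differentiate.

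Promoter sequence was shown for Cdk4 and Cdkn1a, whose brightest probe sets had the smallest adjusted p-values of the members after injury and whose windows held sites bound by known regulators: Myc binds the E-box CACGTG, and p53 binds its own response element. RefSeq windows (GRCm38.p6) were held for 5 of the 8 genes, and the 250 bases before each annotated start were searched on both strands. Cdk4 (plus strand, chr10:127063285-127063534) held 4 copies of CACGTG, in capitals, beginning 172, 118, 98 and 11 bases before the start. Cdkn1a (plus strand, the more upstream of its 2 starts, chr17:29090729-29090978) held 1 p53 site with at most 1 mismatch, in capitals, beginning 51 bases before the start.
Cdk4: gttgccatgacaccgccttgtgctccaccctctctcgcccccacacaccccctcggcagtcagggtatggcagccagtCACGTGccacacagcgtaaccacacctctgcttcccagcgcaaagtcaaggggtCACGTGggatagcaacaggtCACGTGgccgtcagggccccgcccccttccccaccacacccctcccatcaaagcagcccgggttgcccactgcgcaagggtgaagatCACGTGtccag
Cdkn1a: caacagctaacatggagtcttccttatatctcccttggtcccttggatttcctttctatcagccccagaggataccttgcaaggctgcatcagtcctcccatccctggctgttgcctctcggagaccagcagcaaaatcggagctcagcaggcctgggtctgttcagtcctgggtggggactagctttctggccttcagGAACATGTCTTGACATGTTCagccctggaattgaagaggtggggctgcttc
Of all 32851 windows of this length, 6.02% held CACGTG, 0.0213% held 4 or more copies, and 0.0578% held such a p53 site. GGGCGG, in 32.7% of all windows, was found in at least 1 window of each of the 5 genes, and neither CAGCTG (13% of windows) nor the E2F motifs TTTCCCGC and TTTGGCGC (1.3%) occurred in any of them. The matches describe letters only, since no binding was measured in this series.

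Both knockouts were checked first. The Lmna probe set 1421654_a_at gave 53 to 109 on the 9 lamin A/C KO arrays against 650 to 5334 on the 14 others. Probe set 1425472_a_at overlapped on day 0 but was lower in lamin A/C KO than on all other arrays on day 3 (902 to 1039 against 1948 to 2724) and day 4 (620 to 733 against 1893 to 2638). The other 2 Lmna probe sets were not lower in lamin A/C KO on any day, and no source used here places their probes relative to the deleted part. Probe set 1452212_at was higher in lamin A/C KO on day 3 (311 to 456 against 11.4 to 158) and day 4 (223 to 266 against 13.3 to 71.3). For 1426868_x_at the ranges overlapped on each day. Emd gave 153 to 465 on the 8 emerin KO arrays and 587 to 871 on the 15 others. The labelled tissue fitted its markers, since all 10 muscle fiber markers were measured and their summed signal was 226961 to 291855 on day 0 and 56503 to 124156 after injury. The Gapdh 3′/5′ signal ratio, which rises when RNA is degraded, was above 2 on 5 arrays, all of injured emerin KO muscle (4.79, 6.09 and 3.62 on day 3, and 2.89 and 5.30 for replicates 1 and 3 of day 4), and lay between 0.822 and 1.64 on the other 18. Differences were also fitted with this ratio as a covariate. In whole muscle, more cells of a type and more RNA per cell cannot be told apart.

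Injury raised most of the family in every genotype. Between day 0 and day 3, 5 of the 8 genes rose in controls, when 19.7% of all 11176 tested genes rose (adjusted p under 0.05 from limma over all probe sets, with each gene counted by its brightest probe set). The median log2 difference over the 8 was 0.96, against 0.08 over all genes. On day 4, 6 of 8 were above day 0 in controls, with 18.8% of genes higher. In emerin KO muscle, 6 genes rose by day 3 (background 23.5%) and 6 by day 4 (23.1%), with medians over the 8 of 1.84 and 1.62. Lamin A/C KO muscle had 6 higher genes on day 3 (23.1%) and 7 on day 4 (20.5%), with medians of 1.05 and 0.75. Cdkn1b was the exception in direction, with 1 fall, in emerin KO on day 3, where 21.9% of all genes fell. None of the 8 differed between days 3 and 4 in any genotype, over comparisons in which 0.00895% (control), 1.06% (emerin KO) and 1.91% (lamin A/C KO) of all genes were called. At an unadjusted p under 0.05, 0, 2 and 5 of the 18 member probe sets differed between those days. Of all 11176 genes, 517, 1216 and 1628 did. These unadjusted counts, here and below, take members by probe set and all genes by the brightest alone. The 2 units differ, so their shares cannot be compared directly. Markers of other cell types moved with injury: control sums over 10 macrophage markers lay at 4254 to 6270 before injury but at 38594 to 40265 by day 3, and those over 8 satellite cell and myoblast markers lay at 3039 to 3128 but then at 15768 to 16024. Their part in the rises of the family was not tested.

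**Figure D1:**
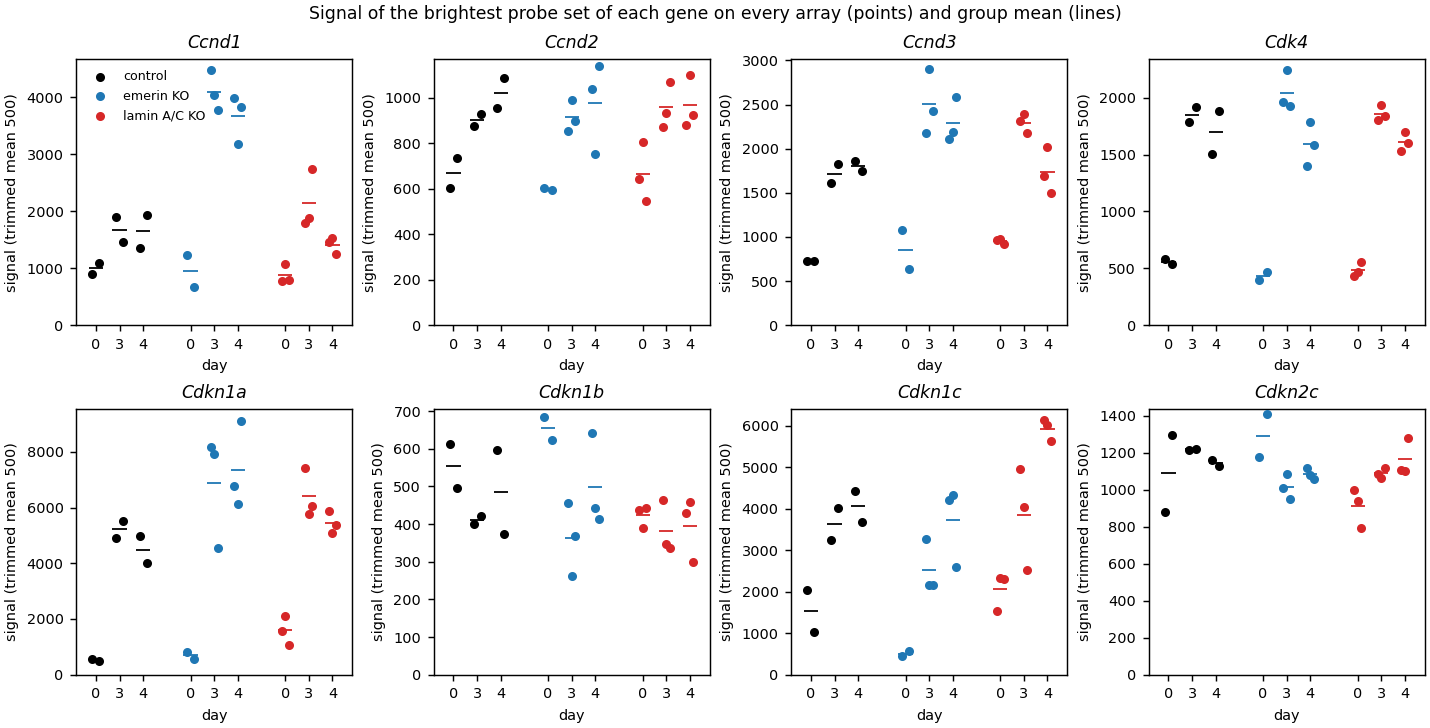
Signal of the brightest probe set of each gene (vertical axes, MAS5 signal rescaled to a trimmed mean of 500) on days 0, 3 and 4 in control (black), emerin KO (blue) and lamin A/C KO (red) muscle. Points are arrays and lines are group means; Ccnd1 is highest in injured emerin KO muscle, Cdkn1a on day 0 is highest in lamin A/C KO, and Cdkn1c on day 0 is lowest in emerin KO.

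By their brightest probe sets, 4 of the 8 genes differed between genotypes. Other probe sets of Ccnd2 and Cdk4 were also called, as described below. On day 0, 1 gene differed between emerin KO and control (Cdkn1c, lower; 2.95% of all genes called) and 1 between lamin A/C KO and control (Cdkn1a, higher; 0.85%). On day 3, 2 genes were higher in emerin KO than in control (Ccnd1 and Ccnd3; 15.8%), and on day 4, 1 gene was (Ccnd1; 5.36%). Lamin A/C KO differed from control in none of the 8 on day 3 (0.0268% of all genes called) or day 4 (0.0447%). At an unadjusted p under 0.05, 3 and 1 of the 18 probe sets differed. Of all 11176 genes, counted by the brightest probe set, 790 and 524 did. The knockouts differed from each other in 2 genes on day 0 (Cdkn1a and Cdkn1c, both lower in emerin KO; 5.98%), and in Ccnd1 alone, higher in emerin KO, on day 3 (9.45%) and day 4 (16.3%). As a mean over the 3 days, emerin KO was above control in Ccnd1, Ccnd3 and Cdkn1a and below it in Cdkn1c (4 of 8, against 22.2% of all genes), and lamin A/C KO was above control in Cdkn1a (1 of 8, against 0.501%). The comparisons of each knockout share the control arrays.

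Ccnd1 encodes cyclin D1, the D cyclin most directly driven by mitogens. Its signals in controls were 893 and 1097 on day 0, 1898 and 1451 on day 3, and 1348 and 1940 on day 4. In emerin KO muscle they were 1235 and 666 on day 0, then 4481, 4049 and 3769 on day 3 and 3982, 3180 and 3838 on day 4. Lamin A/C KO arrays gave 783, 1078 and 789, then 1800, 1874 and 2737, then 1461, 1524 and 1247. All 6 injured emerin KO arrays were thus above all other arrays, and the 3 day-0 groups overlapped. In the order of group means, emerin KO on day 3 (4100 ± 358, SD, n = 3) and on day 4 (3667 ± 428, n = 3) overlapped each other and stood above lamin A/C KO on day 3 (2137 ± 521, n = 3). The 4 groups of injured control and lamin A/C KO muscle overlapped with their neighbours, as did the 3 day-0 groups below them.

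Ccnd1 rose between day 0 and day 3 by 0.73 ± 0.25 (SE) in controls, 2.13 ± 0.23 in emerin KO and 1.23 ± 0.21 in lamin A/C KO, on the log2 scale of signal plus 32 used for every difference here (limma, adjusted p = 0.0325, 1.23e-07 and 4.86e-05). By day 4 the differences from day 0 were 0.69 ± 0.25, 1.97 ± 0.23 and 0.67 ± 0.21 (limma, adjusted p = 0.0434, 4.46e-07 and 0.0149). The rise in controls rested on single arrays: without control day 0 replicate 1 it was 0.58 on day 3 (limma, adjusted p = 0.212) and 0.55 on day 4 (0.246), without control day 3 replicate 1 it was 0.54 (0.251), and without control day 4 replicate 2 it was 0.43 (0.356). In all, the day-3 call was lost under 5 and the day-4 call under 13 of 35 alternative settings. The day-4 rise in lamin A/C KO also missed the threshold without lamin A/C KO day 0 replicate 1, day 0 replicate 3 or day 4 replicate 2, with adjusted p of 0.0539 to 0.0621.

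Emerin KO exceeded control in Ccnd1 by 1.28 ± 0.23 on day 3, a 2.44-fold difference, and by 1.16 ± 0.23 on day 4, or 2.23-fold (limma, adjusted p = 0.000771 and 0.006). The other 2 Ccnd1 probe sets, which followed the brightest with Pearson correlations of 0.97 and 0.93 over the 23 arrays, gave 1.31 ± 0.25 and 1.36 ± 0.24 on day 3 and 1.01 ± 0.25 and 0.97 ± 0.24 on day 4, all past the threshold. Their day-3 calls were each lost under 1 of 32 settings, the Gapdh covariate. Their day-4 calls were lost under 6 and 7 of 33, including that covariate and fits of only the compared groups. Against lamin A/C KO the excess was 0.95 ± 0.21 on day 3 and 1.36 ± 0.21 on day 4 (limma, adjusted p = 0.00584 and 0.000256). The rise from day 0 to day 3 was itself larger in emerin KO than in control, by 1.40 ± 0.34 (limma interaction, adjusted p = 0.0364), in a comparison that called 2.24% of all genes. For the rise to day 4 the interaction was 1.28 ± 0.34 (adjusted p = 0.113), and none of the 8 genes was called by its brightest probe set, with 0.483% of all genes called. In lamin A/C KO the corresponding interactions were 0.51 ± 0.33 and -0.02 ± 0.33, and neither comparison called any of the 8 genes (0.125% and 0.17% of all genes). At an unadjusted p under 0.05 they held 3 and 1 of 18 probe sets, and 703 and 854 of all 11176 genes by the brightest probe set.

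The arrays with a Gapdh 3′/5′ ratio above 2 were all of injured emerin KO muscle, so ratio and genotype can hardly be told apart after injury. Within emerin KO on day 3, ratios of 4.79, 6.09 and 3.62 went with Ccnd1 signals of 4481, 4049 and 3769. With the ratio as a covariate, the emerin KO excess over control was 0.94 on day 3 and 0.95 on day 4, the excess over lamin A/C KO was 0.68 and 1.10, and the day-3 interaction was 1.10, all short of the threshold (limma, adjusted p = 0.557, 0.328, 0.627, 0.307 and 0.465). The emerin KO array of day 4 with a ratio of 1.40, replicate 2, had a Ccnd1 signal of 3180, against 1348 and 1940 in controls of that day with ratios of 0.932 and 1.23. Keeping only that emerin KO array of days 3 and 4, the day-4 excess over control was 0.96 ± 0.33 (limma, adjusted p = 0.346); a lone array is assumed to vary like the other groups. The day-4 excess over control also lost its call without control day 4 replicate 1 (0.90, adjusted p = 0.161), and the interaction lost it without any 1 of the control arrays of days 0 and 3, emerin KO day 0 replicate 2 or emerin KO day 3 replicates 1 and 2 (adjusted p 0.0529 to 0.185). Marker sums of 7 of 9 cell types on day 3 and of 6 on day 4 did not overlap between emerin KO and control. Satellite cell and myoblast markers summed to 22033 to 24480 in emerin KO on day 3 and 17580 to 19341 on day 4, above the controls at 15768 to 16024 and 11668 to 13404. Macrophage markers were also higher, at 44624 to 50364 against 38594 to 40265 on day 3 and 44240 to 48652 against 38687 to 40956 on day 4. Fibroblast markers were lower, at 50549 to 58089 against 76960 to 80769 on day 3 and 64621 to 70629 against 77520 to 90172 on day 4. The part of these cell types in the Ccnd1 result was not tested.

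**Figure D2:**
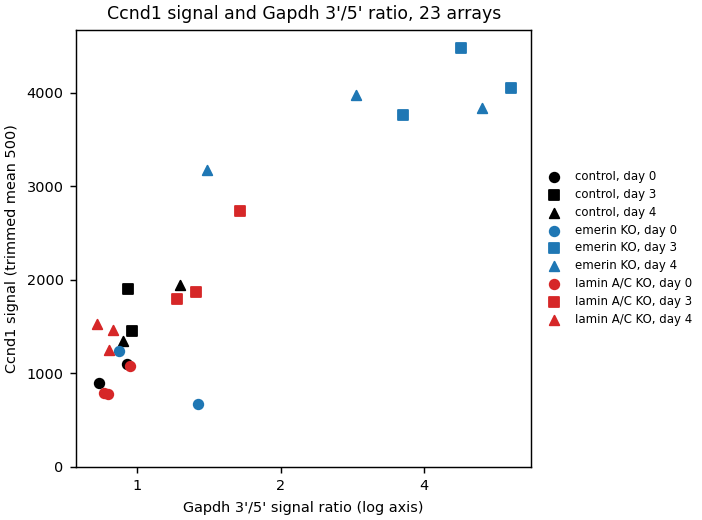
Ccnd1 signal (vertical axis, rescaled MAS5 signal) against the Gapdh 3′/5′ signal ratio (horizontal log axis) for the 23 arrays, coloured by genotype with marker shape for day. The 5 arrays with a ratio above 2 lie between 3769 and 4481, and the emerin KO array of day 4 with a ratio of 1.40 lies at 3180.

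Ccnd2 encodes cyclin D2. Control signals were 604 and 736 on day 0, 874 and 928 on day 3 and 955 and 1086 on day 4; emerin KO gave 601 and 592, then 855, 991 and 898, then 1038, 753 and 1140; lamin A/C KO gave 644, 804 and 546, then 873, 933 and 1069, then 881, 1101 and 925. Every injured group lay above its own day-0 group without overlap. The differences from day 0 were small, at 0.42 ± 0.20 on day 3 in controls (not called; adjusted p = 0.12) and 0.52 to 0.66 in the other 5 comparisons, all called (limma, adjusted p = 0.00478 to 0.0262). No genotype differed from another in the brightest Ccnd2 probe set on any day. These calls were fragile: with the Gapdh ratio as a covariate the emerin KO difference was -0.05 on day 3 and 0.26 on day 4 (adjusted p = 0.923 and 0.375), and without control day 0 replicate 1 the control difference on day 4 was 0.45 (0.207). Leaving out control day 4 replicate 2, emerin KO day 0 replicate 2, lamin A/C KO day 0 replicate 3, day 3 replicate 3 or day 4 replicate 2 also ended a call, with adjusted p of 0.0565 to 0.163.

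The Ccnd2 probe sets did not move as one. Correlations with the brightest over the 23 arrays were 0.90 for 1434745_at, 0.54 for 1448229_s_at, 0.48 for 1455956_x_at and -0.24 for 1430127_a_at. Probe set 1434745_at rose in 5 of the 6 comparisons with day 0, by 0.47 to 0.89; with the Gapdh covariate the calls were lost in emerin KO on days 3 and 4 (0.43 and 0.45, adjusted p = 0.369 and 0.176) and in lamin A/C KO on day 3 (0.33, 0.153). Probe set 1448229_s_at rose in controls on day 4, by 0.74 to 1.17 over the alternative settings, a call lost under 1 of 33. It also rose in lamin A/C KO on day 3, by 0.56 to 1.04, a call kept under all 33. By contrast, 1430127_a_at fell in lamin A/C KO on day 3 by 0.71 ± 0.22 (limma, adjusted p = 0.0119). On day 3, 1448229_s_at was higher in emerin KO than in control by 0.81 ± 0.25 (limma, adjusted p = 0.0282), where the brightest differed by 0.02 ± 0.18. This call was lost under 5 of 32 settings: with the Gapdh covariate (0.59, adjusted p = 0.831), in a fit of the compared groups (0.0849), and without control day 3 replicate 2 (0.50, 0.37), emerin KO day 3 replicate 1 (0.78, 0.0741) or replicate 2 (0.80, 0.0707). Probe sets with the suffixes _s_at and _x_at can also read related transcripts.

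Ccnd3 encodes cyclin D3, the D cyclin kept by differentiating myotubes. Its control signals were 730 and 729 on day 0, 1606 and 1830 on day 3, and 1866 and 1752 on day 4. Emerin KO arrays gave 1073 and 637, then 2177, 2902 and 2433, then 2114, 2191 and 2580. In lamin A/C KO the signals were 964, 976 and 922, then 2315, 2396 and 2172, then 1689, 2017 and 1500. All injured arrays were above all day-0 arrays. Ccnd3 rose by 1.20 ± 0.19, 1.55 ± 0.18 and 1.24 ± 0.16 by day 3 in control, emerin KO and lamin A/C KO, and stood 1.27 ± 0.19, 1.43 ± 0.18 and 0.83 ± 0.16 above day 0 on day 4 (limma, adjusted p = 2.19e-07 to 0.000221). On day 3 it was 0.53 ± 0.18 higher in emerin KO than in control (limma, adjusted p = 0.0443); lamin A/C KO arrays of that day were also all above both controls, by 0.41 ± 0.18, which was not called (0.654). The emerin call missed the threshold under 20 of 34 alternative settings, among them the Gapdh covariate (0.48, adjusted p = 0.787) and the omission of control day 3 replicate 1 (0.44, 0.278) or emerin KO day 3 replicate 2 (0.42, 0.174).

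Cdk4 encodes the kinase that D cyclins activate. Control signals were 585 and 534 on day 0, 1791 and 1915 on day 3, and 1506 and 1887 on day 4. Emerin KO gave 399 and 466, then 1959, 2248 and 1931, then 1396, 1789 and 1586. The signals in lamin A/C KO were 435, 466 and 556, then 1801, 1933 and 1844, then 1528, 1698 and 1599. The injured and day-0 arrays were far apart in every genotype, and the 6 injured groups overlapped along their order. Cdk4 rose by 1.67 ± 0.16 in controls, 2.16 ± 0.14 in emerin KO and 1.88 ± 0.13 in lamin A/C KO by day 3 (limma, adjusted p = 5.2e-08, 1.07e-10 and 2.4e-10), which is 3.19-, 4.48- and 3.67-fold. On day 4 it was 1.54 ± 0.16, 1.80 ± 0.14 and 1.67 ± 0.13 above day 0. These 6 calls were kept under every alternative run, and no genotype difference was called for this probe set. It is 1422441_x_at, which by its suffix can also read related transcripts. With the mean of the Cdk4 probe sets, emerin KO on day 0 differed from control by -0.65 and from lamin A/C KO by -0.51 (limma, adjusted p = 0.0173 and 0.0296). The rise to day 3 was then larger in emerin KO than in control by 0.93 (limma interaction, adjusted p = 0.0209).

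The other 2 Cdk4 probe sets rose in the same 6 comparisons. Probe set 1422440_at, with signals of 432 and 272 in controls and 108 and 159 in emerin KO on day 0, was 1.20 ± 0.23 lower in emerin KO (limma, adjusted p = 0.0043), where the brightest probe set gave -0.35 ± 0.16 (0.292). Without control day 0 replicate 1 the difference was -0.89, and the call was lost. The same probe set was lower in emerin KO than in lamin A/C KO on day 0, by -1.18 to -0.73 over the alternative settings. That call was lost under 2 of 33 of them. Probe set 1422439_a_at was higher in emerin KO than in control on day 3, by 0.39 to 0.52 over the settings, a call lost under 9 of 32. The rise to day 3 was larger in emerin KO than in control by 1.44 ± 0.31 for 1422440_at and 0.86 ± 0.22 for 1422439_a_at (limma interaction, adjusted p = 0.0173 and 0.0409), against 0.49 ± 0.21 for the brightest (0.247). With the Gapdh covariate these interactions were 1.79 and 0.81 with adjusted p of 0.133 and 0.362, and the adjusted p was 0.108 and 0.161 without control day 0 replicate 1; over all settings the calls were lost under 4 and 15.

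**Figure D3:**
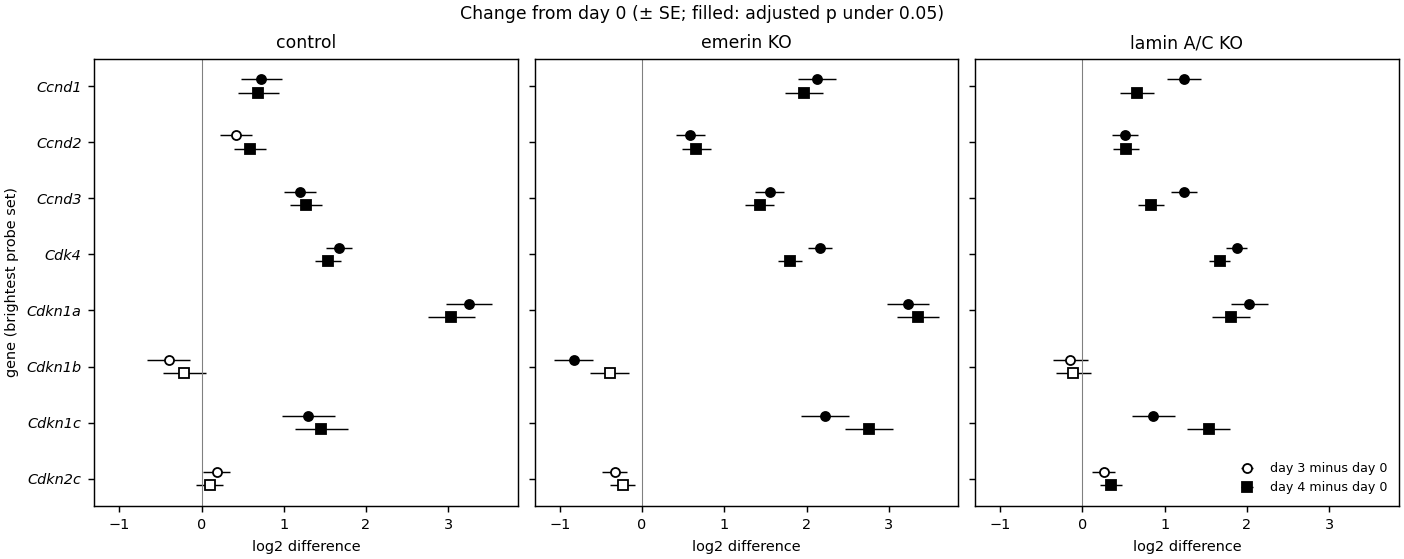
Log2 difference from day 0 (horizontal axes; points, with bars for 1 standard error) of the brightest probe set of each gene in control, emerin KO and lamin A/C KO muscle, for day 3 (circles) and day 4 (squares). Filled points passed an adjusted p of 0.05; Ccnd1, Ccnd3, Cdk4, Cdkn1a and Cdkn1c are filled in all 6 comparisons, and Cdkn1a has the largest difference in each panel.

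Cdkn1a encodes p21, which p53 and MyoD are known to induce. Control signals were 547 and 486 on day 0, 4920 and 5508 on day 3, and 4965 and 4022 on day 4. Emerin KO gave 830 and 554, then 8176, 7919 and 4546, then 6781, 6133 and 9116. For lamin A/C KO they were 1572, 2125 and 1076 on day 0, 7402, 5762 and 6041 on day 3, and 5872, 5090 and 5363 on day 4. On day 0 the 3 genotypes did not overlap, in the order lamin A/C KO (1591 ± 524, SD, n = 3), emerin KO (692 ± 195, n = 2) and control (516 ± 43.4, n = 2), whereas the 6 injured groups overlapped with their neighbours. Cdkn1a rose 9.57-fold in controls by day 3 (3.26 ± 0.28), 9.41-fold in emerin KO (3.23 ± 0.26) and 4.09-fold in lamin A/C KO (2.03 ± 0.23; limma, adjusted p = 1.45e-08, 1.12e-09 and 2.57e-07). On day 4 the differences from day 0 were 3.04 ± 0.28, 3.35 ± 0.26 and 1.80 ± 0.23. All 6 rises were kept under every alternative run.

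On day 0 Cdkn1a was 1.52 ± 0.26 higher in lamin A/C KO than in control, or 2.86-fold (limma, adjusted p = 0.00364), and 1.14 ± 0.26 lower in emerin KO than in lamin A/C KO (0.00874). Differences on days 3 and 4 from control were 0.29 ± 0.26 and 0.28 ± 0.26. The smaller rise of Cdkn1a in lamin A/C KO than in control, by 1.23 ± 0.36 on day 3 and 1.24 ± 0.36 on day 4, did not pass (limma interaction, adjusted p = 0.459 and 0.322). The second Cdkn1a probe set, 1421679_a_at, rose in the same 6 comparisons by 1.43 to 2.87 (in emerin KO on day 3 by 2.01 with the Gapdh covariate, adjusted p = 0.0694) and was 1.22 ± 0.45 higher in lamin A/C KO on day 0, which was not called (0.303). Without control day 0 replicate 2 the day-0 difference was 1.43 (limma, adjusted p = 0.075), and in a fit of only the compared groups its adjusted p was 0.0709. The difference from emerin KO lost its call without emerin KO day 0 replicate 2 (-0.86) or lamin A/C KO day 0 replicate 2 (-0.91, limma, adjusted p = 0.0521). It also lost it with the mean of the probe sets of the gene (-0.81, limma, adjusted p = 0.108) and in a fit of only the compared groups.

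Other genes measured on day 0 moved with Cdkn1a in lamin A/C KO. The summed satellite cell and myoblast markers were 4096 to 4199 against 3039 to 3128 in controls, macrophage markers were 6435 to 7393 against 4254 to 6270, Schwann cell markers were 8129 to 9067 against 12898 to 13731 and adipocyte markers were 19243 to 20213 against 20844 to 22908. In the same arrays 4 of 10 genes of newly formed muscle were higher (0.85% of all genes called): Myl4 by 1.80 ± 0.21, Myh8 by 1.52 ± 0.20, Tnnt2 by 1.46 ± 0.21 and Chrna1 by 0.64 ± 0.15 (limma, adjusted p = 5.3e-05 to 0.0458). The Chrna1 call was lost under 20 of 35 settings. That of Myl4 was lost with the mean of the probe sets of the gene (limma, adjusted p = 0.356). The Tnnt2 call was lost in a fit of only the compared groups (limma, adjusted p = 0.0652), and that of Myh8 was kept under every setting. Cdkn2b, the INK4 inhibitor p15, was 1.78 ± 0.36 higher (adjusted p = 0.0178), a call lost under 5 of 35 settings, including the omission of either control array of day 0. Of 14 tested p53 targets, 1 was higher, Sesn1 by 0.73 ± 0.17 (adjusted p = 0.0419; lost under 15 of 35 settings), and none was lower, with a list median of 0.25 against 0.04 over all genes. The part of these groups in the Cdkn1a result was not tested.

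Cdkn1b encodes p27, an inhibitor characteristic of resting cells. Control signals were 613 and 497 on day 0, 399 and 421 on day 3, and 596 and 375 on day 4. Emerin KO gave 685 and 624, then 455, 263 and 368, then 641, 443 and 414. The lamin A/C KO values were 437, 391 and 444, then 463, 346 and 337, then 429, 459 and 298. Only emerin KO on day 3 passed the test, with a fall of 0.83 ± 0.24 from day 0 (limma, adjusted p = 0.00694). With the Gapdh covariate that fall was 0.40 (adjusted p = 0.554), and without emerin KO day 0 replicate 1 it was 0.77 (0.0535). The second probe set, 1419497_at, reached 100 on 4 arrays and was called in none of the 26 comparisons; its correlation with the brightest was 0.11. Its difference between days 0 and 4 in controls, -1.05 ± 0.42 (limma, adjusted p = 0.065), passed under 8 alternative settings, among them quantile normalization (-1.18, 0.0112) and the replicate block (0.0401). The mean of both Cdkn1b probe sets passed as well (-0.63, adjusted p = 0.0438).

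Cdkn1c encodes p57, an imprinted inhibitor tied to cell cycle exit and myoblast differentiation. Control signals were 2039 and 1028 on day 0, 3239 and 4025 on day 3, and 4428 and 3680 on day 4. Emerin KO gave 450 and 569 on day 0, then 3267, 2160 and 2160, then 4214, 4342 and 2605. In lamin A/C KO they were 1533, 2342 and 2312, then 4957, 4047 and 2520, then 6128, 6021 and 5641. The emerin KO arrays of day 0 were the lowest of all 23, and the lamin A/C KO arrays of day 4 were the 3 highest. By day 3 Cdkn1c rose by 1.30 ± 0.32 in controls, 2.22 ± 0.29 in emerin KO and 0.86 ± 0.26 in lamin A/C KO, and by day 4 by 1.46 ± 0.32, 2.76 ± 0.29 and 1.53 ± 0.26 (limma, adjusted p = 9.54e-08 to 0.0114). The control rises missed the threshold without control day 0 replicate 2 (0.81 and 0.97, adjusted p = 0.106 and 0.0524), and the lamin A/C KO rise to day 3 without its day 0 replicate 1 (0.66, 0.0762) or day 3 replicate 1 (0.65, 0.0781).

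On day 0 Cdkn1c was 1.46 ± 0.32 lower in emerin KO than in control and 1.93 ± 0.29 lower than in lamin A/C KO (limma, adjusted p = 0.0127 and 0.000222), which is 2.75- and 3.82-fold. The second of these was kept under every alternative run, and the first was lost without control day 0 replicate 1 (-0.98, adjusted p = 0.263), without emerin KO day 0 replicate 1 (-1.30, 0.0641) and in a fit of only the compared groups (0.188). The Gapdh ratio was 0.914 and 1.34 on these 2 emerin KO arrays, and with the covariate the difference from control was -1.34 (adjusted p = 0.0167). After injury the differences from control were -0.54 ± 0.29 and -0.15 ± 0.29, and the larger rise in emerin KO, by 0.92 ± 0.43 on day 3 and 1.31 ± 0.43 on day 4, did not pass (limma interaction, adjusted p = 0.282 and 0.22). The summed signal of 10 fibroblast markers on day 0 was 37291 to 56420 in emerin KO and 77606 to 89062 in controls, and that of satellite cell and myoblast markers was 2162 to 2397 and 3039 to 3128. Schwann cell markers were lower as well (5275 to 7371 against 12898 to 13731), and lymphocyte (862 to 1527 against 618 to 746) and neutrophil markers (1563 to 1820 against 1144 to 1353) were higher. Their part in the Cdkn1c difference was not tested.

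Cdkn2c encodes p18, the INK4 inhibitor of the set. Control signals were 879 and 1296 on day 0, 1216 and 1218 on day 3, and 1160 and 1129 on day 4. Emerin KO gave 1175 and 1407, then 1008, 1085 and 951, then 1119, 1081 and 1060. Lamin A/C KO gave 1000, 939 and 792, then 1082, 1065 and 1119, then 1107, 1104 and 1282. All 23 values lay between 792 and 1407, and 7 of the 8 neighbours in the order of group means overlapped. Cdkn2c rose in lamin A/C KO on day 4 by 0.35 ± 0.13 (limma, adjusted p = 0.0497), a call lost under 24 of 35 alternative settings. In emerin KO its differences from day 0 were -0.33 ± 0.15 and -0.24 ± 0.15, neither called (0.0788 and 0.221). The day-3 fall passed with quantile normalization (-0.39, limma, adjusted p = 0.0346) and without control day 0 replicate 1 (0.0485) or 2 (0.0489). The excess of emerin KO over lamin A/C KO on day 0, not called, passed at 0.49 without either of those arrays (0.0338 and 0.0341). It also passed with the mean of the probe sets of a gene (0.0453).

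**Figure D4:**
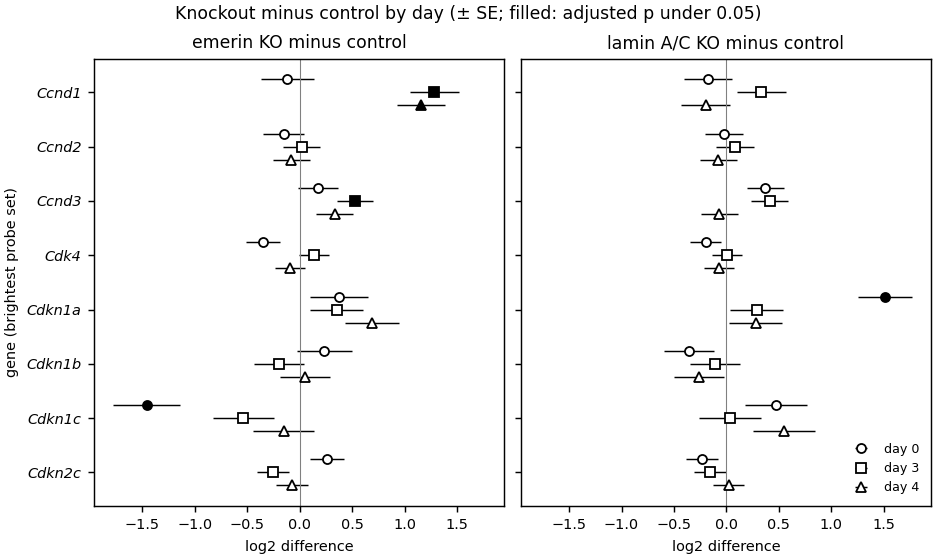
Log2 difference of emerin KO (left) and lamin A/C KO (right) from control (horizontal axes; points, with bars for 1 standard error) for the brightest probe set of each gene on day 0 (circles), day 3 (squares) and day 4 (triangles). Filled points passed an adjusted p of 0.05: Cdkn1c on day 0, Ccnd1 on days 3 and 4 and Ccnd3 on day 3 in emerin KO, and Cdkn1a on day 0 in lamin A/C KO.

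Averaged over the 3 days, emerin KO exceeded control in Ccnd1 by 0.77 ± 0.14, in Cdkn1a by 0.47 ± 0.15 and in Ccnd3 by 0.35 ± 0.10, and lay below it in Cdkn1c by 0.72 ± 0.17 (limma, adjusted p = 0.000406, 0.0293, 0.0213 and 0.00515). With the Gapdh covariate all 4 calls were lost, at 0.57, 0.12, 0.32 and -0.23 (adjusted p = 0.4, 0.939, 0.624 and 0.884). Without control day 3 replicate 1, control day 4 replicate 2 or emerin KO day 0 replicate 1, the adjusted p was 0.0746 to 0.101 for Cdkn1a and 0.0506 to 0.0976 for Ccnd3; the Cdkn1a call was lost under 10 settings in all. Lamin A/C KO exceeded control in Cdkn1a by 0.69 ± 0.15 (limma, adjusted p = 0.0356), a call lost under 19 of 35 settings, with a highest adjusted p of 0.125. Over the 3 days, Ccnd2 1448229_s_at was also called higher in emerin KO than in control, by 0.44 to 0.67 over the settings. That call was lost under 1 of 32, the Gapdh covariate. Cdk4 1422440_at was called lower in emerin KO, at -0.45 to -0.11, a call lost under 22 of 32.

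The rest of the pathway was read from lists. In controls on day 3, 19 of 21 S phase and mitosis genes rose and none fell, with a median of 1.87 against 0.08 over all genes, where 19.7% of all genes rose and 13.8% fell. Among them were Rrm2, a subunit of ribonucleotide reductase (2.91 ± 0.18), Mcm6 of the replicative helicase (2.90 ± 0.51), Birc5 (2.81 ± 0.21) and the proliferation marker Mki67 (2.69 ± 0.26). Emerin KO and lamin A/C KO had 18 and 19 higher members on day 3, with medians of 2.81 and 2.20, against -0.08 over all genes in both and 23.5% and 23.1% of genes higher. Of 17 other G1 regulators, 6 rose in controls, including Cks1b (2.39 ± 0.19), cyclin E1 gene Ccne1 (2.13 ± 0.34) and Cdkn2b (1.86 ± 0.39), and 1 fell, Fbxo31, which encodes an F-box protein (-1.44 ± 0.30). Of 12 Rb and E2F genes, 4 rose, led by E2f8 (3.10 ± 0.50) and the pocket protein gene Rbl1 (1.26 ± 0.28), and E2f6 fell by 2.59 ± 0.24. All adjusted p-values of the genes named here were 0.00129 or less in limma.

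Of 14 p53 targets tested, 4 rose and 2 fell in controls on day 3, against 19.7% and 13.8% of all genes, with a median of 0.17 against 0.08. The BH3-only gene Pmaip1 rose by 3.65 ± 0.27 and Plk2 by 1.30 ± 0.31, while cyclin G1 gene Ccng1 fell by 2.21 ± 0.18. In emerin KO 3 rose and 3 fell (23.5% and 21.9% of all genes), and in lamin A/C KO 2 rose and 5 fell (23.1% and 19.2%). The Plk2 call missed the threshold without control day 0 replicate 1 (adjusted p = 0.051). Among 15 growth signals that act on D cyclins, Myc (1.69 ± 0.28), Igf2 (1.69 ± 0.21) and Junb (1.59 ± 0.38) rose in controls and none fell, a count of 3 against 19.7% of all genes; without control day 0 replicate 1 the adjusted p of Junb was 0.0691. Of 12 Foxo and TGF-beta genes that act on Cdk inhibitors, 3 rose, including Tgfb1 by 2.60 ± 0.25, and 3 fell, against the same 19.7% and 13.8% of all genes.

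Between emerin KO and control on day 3, 15.8% of all genes were called, 7.16% higher and 8.65% lower in emerin KO. These shares hold for each list below, and no list was tested as a set. Of the 15 growth signals, 3 were lower and none higher: Igf2 by -2.13 ± 0.19, Myc by -1.04 ± 0.26 and Igf1 by -0.95 ± 0.31 (limma, adjusted p = 5.07e-07, 0.00771 and 0.0387). Of 21 S phase and mitosis genes, 6 were higher and 1 was lower, with Mcm7 at 1.04 ± 0.22 and Rrm2 at 0.94 ± 0.16 (limma, adjusted p = 0.00276 and 0.000533). Of the 10 newly formed muscle genes, 5 were lower, led by Myh8 at -1.81 ± 0.20, and 1 was higher, Cdh15 at 1.13 ± 0.16. With the Gapdh covariate the calls of Igf2, Myc, Igf1, Mcm7, Rrm2 and Cdh15 were lost and that of Myh8 was kept (highest adjusted p over its settings 0.00364). The Igf1 call was lost under 9 of 34 settings in all. That of Rrm2 was also lost with the mean of its probe sets, and that of Myc without control day 3 replicate 1.

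The genes whose pattern over the 23 arrays was most like each member were found by Pearson correlation among 10960 genes; the arrays share the injury and the genotypes, and no p is given. Ccnd1 was most like Gltp (0.96), Sdc3 (0.96) and Mtx1 (0.95). Cdk4 was most like Ube2c (0.98), Cks2 (0.98) and Eftud2 (0.98), the first of which encodes a mitotic ubiquitin-conjugating enzyme and the second a Cdk-binding subunit. For Ccnd3 the closest were Blmh (0.97), Fermt3 (0.96) and Pdlim4 (0.96), and for Ccnd2 they were Mrc2 (0.91), Ptger4 (0.90) and Ssbp4 (0.90). Cdkn1a was most like Rab31 (0.98), Hes6 (0.98) and Lpxn (0.98). Cdkn1c was most like Sap30 (0.94) and the imprinted genes Peg3 (0.93) and Mest (0.92). Peg3 signals on day 0 were 625 to 652 in emerin KO and 1186 to 1495 in controls, and Mest signals were 300.1 to 339 and 910 to 950.5; both were chosen for likeness on these arrays, so no test is given. Cdkn1b and Cdkn2c had no close match, with highest correlations of 0.81 (Lrba) and 0.69 (Dusp12).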

How the data were processed

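MAS5 signals, one intensity per probe set and array, were deposited by the authors; MAS5 is named in the submitters' processing notes, and no version or further step is given in the sources used here. Deposited intensities had a mean of 150.04 to 150.06 per array without the lowest and highest 2% of values; each array was rescaled to 500 (factor 3.33), 32 was added and log2 taken. Of 22690 probe sets, 20380 had 1 gene symbol in the platform annotation (691 had several, 1555 none, 64 were controls), and 17771 of these reached 100 on at least 2 of the 23 arrays.

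All 9 groups were fitted together with limma 3.58.1 (R 4.3.3) with an intensity trend and 14 residual degrees of freedom; 26 comparisons were tested, and p-values were adjusted by Benjamini-Hochberg within a comparison over all tested probe sets, with 0.05 as the threshold. Calls were counted over the brightest probe set of each gene (11176 genes). The fit was tested on simulated data. Members and gene lists were chosen with earlier results of these data known. Every probe set of the 8 genes is accounted for. At most 4 called members with the largest difference were named per list, and some of those were left out. A list of myogenic regulators is not described. It held called genes, such as Mymk, Myog, Msc and Id2 in controls on day 3. Between emerin KO and control on day 3, Myf6, Myog, Msc and Myod1 of that list were called. Same-numbered arrays did not all deviate together: 30 of 82 such pairs and 28 of 152 pairs with different numbers correlated above 0.1 (medians 0.03 and -0.03; same-number range -0.30 to 0.39), so replicate numbers were not used as pairs. Alternatives were another scaling, pseudocount, filter, probe set summary and trend, a replicate block, fits of the compared groups alone, the Gapdh ratio and the omission of arrays. Promoters were scanned with Python 3.11.15 and figures drawn with matplotlib 3.10.9.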

Additional observations from a re-analysis of the deposited data

Results flagged for a closer look

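The rise from day 0 to day 3 differed between emerin KO and control, by the limma interaction, in 5 of the 18 member probe sets, all of Ccnd1 or Cdk4. By brightest probe sets 1 of the 8 genes was called, against 2.24% of all genes. The differences were 1.40 for Ccnd1 1448698_at, 1.81 for 1417419_at and 2.01 for 1417420_at, and 0.86 for Cdk4 1422439_a_at and 1.44 for 1422440_at, all larger in emerin KO. For the rise to day 4 none of the 8 genes was called by its brightest probe set, against 0.483% of all genes. Ccnd1 1417420_at differed in that rise by 1.62 (limma, adjusted p = 0.0478). That call was lost under 22 of 33 settings, among them the replicate block (1.58, adjusted p = 0.064) and the Gapdh 3′/5′ ratio as a covariate (1.53, 0.155), with adjusted p up to 0.245. With the covariate the day-3 differences were 1.10 for 1448698_at, 1.30 for 1417419_at and 1.84 for 1417420_at (limma, adjusted p = 0.465, 0.381 and 0.221), and 3 of the 3 emerin KO arrays of day 3 had a ratio above 2. No group had the 4 arrays needed to look for single arrays far from the others of their group.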

How the results depend on the processing

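Of the called differences of brightest probe sets, 24 of 37 between days were kept under every alternative run, as was 1 of 4 between the knockouts; none of the 5 between a knockout and control on a day, the 1 difference in response or the 5 over the 3 days was. The count for differences in response (main 1) was 0 with median scaling, without the intensity trend, in fits of only the compared groups and with the Gapdh covariate, and 3 with the mean of the probe sets of a gene. The count between a knockout and control was 2 in fits of the compared groups and 2 with the covariate. Between the knockouts it was 2 with the covariate. Over the 3 days it was 2 with median scaling, 3 without the trend and 1 with the covariate. The replicate block gave 35 calls between days, 4 between a knockout and control, 4 between the knockouts, 1 in response and 5 over the 3 days, against 37, 5, 4, 1 and 5. Leaving out 1 array at a time gave 33 to 37, 3 to 5, 3 to 6, 0 to 2 and 2 to 5. The count between a knockout and control fell to 3 when either day-0 control or the first day-4 control was left out; that over the 3 days was 2 on omission of the first control of day 3 or the second of day 4, and 3 on omission of the second control or the first emerin KO array of day 0. Ccnd2 on day 3 in emerin KO turned from 0.59 to -0.0509 with the covariate, as did the emerin KO minus control differences of Plk1 (-0.0909) and Igf1 (0.11) on day 3. The cause was not tested. Median scaling moved the median of all genes by 0.17 and 0.18 in the day-3 interactions. Without the 5 arrays of high Gapdh ratio no emerin KO array of day 3 is left, so no family count was possible.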
